A study of Oryctolagus cuniculus with 4 samples.

Results

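Schwann cells are the glia of peripheral nerves. In skin they ensheath the sensory and autonomic axons of the dermis, and they arise from the neural crest, as melanocytes do. Their identity is set by the transcription factor SOX10. They carry the low-affinity neurotrophin receptor NGFR when immature, non-myelinating or responding to injury, hold the calcium-binding protein S100B in the cytoplasm, and use the type II cadherin CDH19 at the cell surface. S100B is also a classical protein of cartilage cells and melanocytes and NGFR is also found on some mesenchymal, mural and basal epithelial cells.

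The Schwann cell genes described here were the rows of the expression table whose gene name was SOX10, S100B, NGFR or CDH19. Of the 4 names, 3 were found among 13913 genes, namely S100B (ENSOCUG00000001473), NGFR (ENSOCUG00000007635) and CDH19 (ENSOCUG00000017601), and all 3 passed the filter on low values, which 9348 genes passed. SOX10 was not analysed here. The names were chosen for what the genes are known to mark and not for their values.

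Single-cell RNA sequencing libraries (droplet method of 10x Genomics) were made from the ventral epidermis and dermis of rabbit ear hypertrophic scar (HS), with 2 libraries in each of 2 groups. The HS group was WT and untreated. The drug-loaded MNs group was WT, carried the same kind of scar and received drug-loaded microneedles (MNs), whose tips stay in the skin and release a fluorouracil prodrug, once a week for 3 weeks. The study wounded the ventral ear skin of female rabbits, taking the perichondrium as well, to raise the scars, and no age stands in the labels. No library with drug-free microneedles was analysed here, so the drug and the needles cannot be told apart. Each library came from 1 scar tissue, and the study called the 2 tissues of a group biologically independent without saying whether they came from separate rabbits, so p-values measured only the spread between these tissues.

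The deposited table gave 1 value per gene and library, with no values per cell and an unknown depth. Values are given as relative expression (ppm), that is, per 1000000 of the library total. From 11844 to 12059 genes were above 0 in each library. The mitochondrial share was 2.75% and 2.80% for HS, against 4.37% and 4.58% for drug-loaded MNs. Fewer cells of a type and less RNA per cell cannot be told apart in such values.

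The 3 Schwann cell genes did not share a pattern over the 4 libraries, and none of them separated the groups. S100B was spread 24.1-fold between the HS libraries, CDH19 ran in the opposite order within HS, and NGFR stood apart only in drug-loaded MNs replicate 1. The genes whose profiles lay nearest to S100B included the cartilage genes COL11A2 and HAPLN1, and those nearest to CDH19 included SCN7A, a gene of non-myelinating Schwann cells. The data therefore went against Schwann cell genes as 1 name for a shared pattern, since the profile of S100B was far from that of CDH19.

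S100B, a small calcium-binding protein of glia, cartilage cells and pigment cells, stood at 410 ppm in HS replicate 1 and 17.0 ppm in HS replicate 2. It stood at 204 ppm in drug-loaded MNs replicate 1 and 98.5 ppm in drug-loaded MNs replicate 2. Both treated libraries thus lay between the untreated ones, and the order from high to low was HS replicate 1, drug-loaded MNs replicate 1, drug-loaded MNs replicate 2 and HS replicate 2. HS averaged 214 ± 278 ppm and drug-loaded MNs 151 ± 74.6 ppm (SD, n = 2 each). The mean was lower in drug-loaded MNs while the fitted log2 difference stood at 0.73 (SE 1.22, limma adjusted p 0.915), because the mean follows the highest library and the log scale the lowest. Among the tested genes, only 11 differed more between the HS libraries on the log2 scale, where S100B differed by 4.51.

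NGFR binds all neurotrophins and works with TRK receptors, sortilin or Nogo receptors. Its level was 5.97 and 6.06 ppm in the HS libraries, 14.5 ppm in drug-loaded MNs replicate 1 and 5.69 ppm in drug-loaded MNs replicate 2. A single treated library was therefore high, and the other 3 lay close together, with drug-loaded MNs replicate 2 the lowest of all. HS averaged 6.01 ± 0.0699 ppm and drug-loaded MNs 10.1 ± 6.21 ppm (SD, n = 2 each). The fitted log2 fold change came to 0.54 (SE 0.41, limma adjusted p 0.801).

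CDH19, a cadherin of the Schwann cell lineage, stood at 2.62 ppm in HS replicate 1, 8.08 ppm in HS replicate 2, 10.6 ppm in drug-loaded MNs replicate 1 and 4.90 ppm in drug-loaded MNs replicate 2. HS replicate 1, the highest library for S100B, was the lowest for CDH19. HS averaged 5.35 ± 3.86 ppm and drug-loaded MNs 7.76 ± 4.04 ppm (SD, n = 2 each), so that the group means lay closer together than the libraries within each group. The fitted log2 fold change came to 0.53 (SE 0.51, limma adjusted p 0.850).

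**Figure D1:**
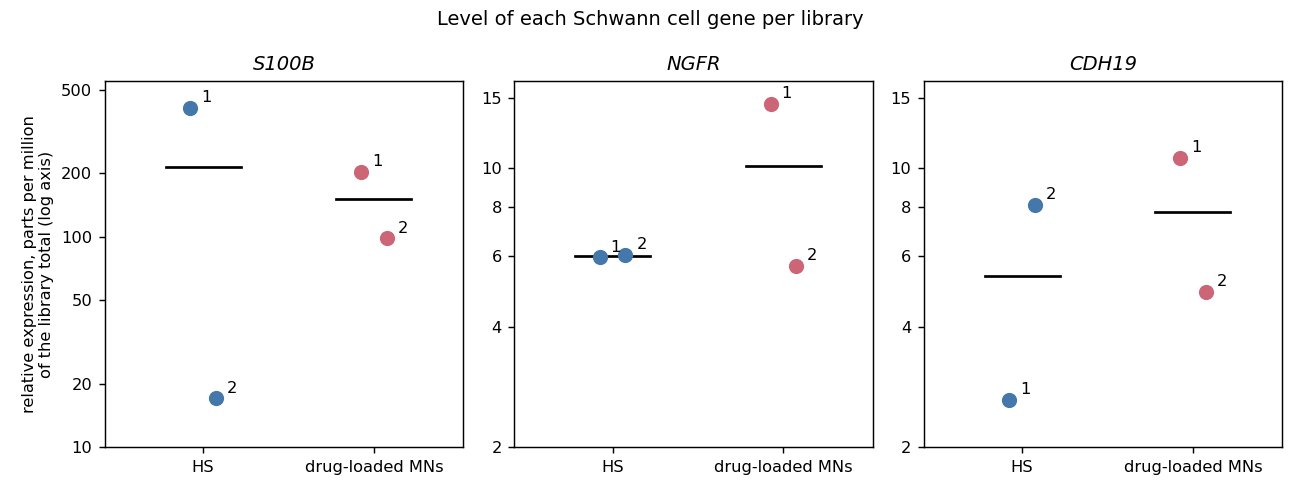
Relative expression of S100B, NGFR and CDH19 per 1000000 of the library total (ppm, log axis) in HS and drug-loaded MNs; each point is 1 library with its replicate number, and bars are the group means. The groups overlap for all 3 genes, and S100B spans 17.0 to 410 ppm within HS alone.

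To compare the treated with the untreated scars across all genes, log2(ppm + 1) was fitted with limma and p-values were adjusted by the Benjamini-Hochberg method over the 9348 tested genes. None of the 3 Schwann cell genes passed an adjusted p of 0.05, where 0.0428% of all tested genes did (0.0214% higher and 0.0214% lower in drug-loaded MNs). None had an unadjusted p under 0.05, where 8.65% did (7.26% higher, 1.39% lower). All 3 had a log2 fold change above 0, as did 64.6% of the tested genes, whose median was 0.12. None was free of overlap between the groups, which 37.8% of tested genes were (26.6% higher, 11.2% lower).

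Each direction hung on a different library. Without HS replicate 2, the log2 fold change of S100B was -1.53, and without HS replicate 1 it was 2.99. That of CDH19 was -0.13 without HS replicate 1 and 1.19 without HS replicate 2. Leaving out drug-loaded MNs replicate 1 gave it 0.04, and leaving out replicate 2 of that group gave 1.02. For NGFR the value was -0.068 without drug-loaded MNs replicate 1, and 1.14 when replicate 2 of that group was left out. S100B also moved to 0.21 without drug-loaded MNs replicate 1 and to 1.25 when replicate 2 of that group was left out. No fit with a library left out gave an adjusted p under 0.05 for any of the 3 genes.

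**Figure D2:**
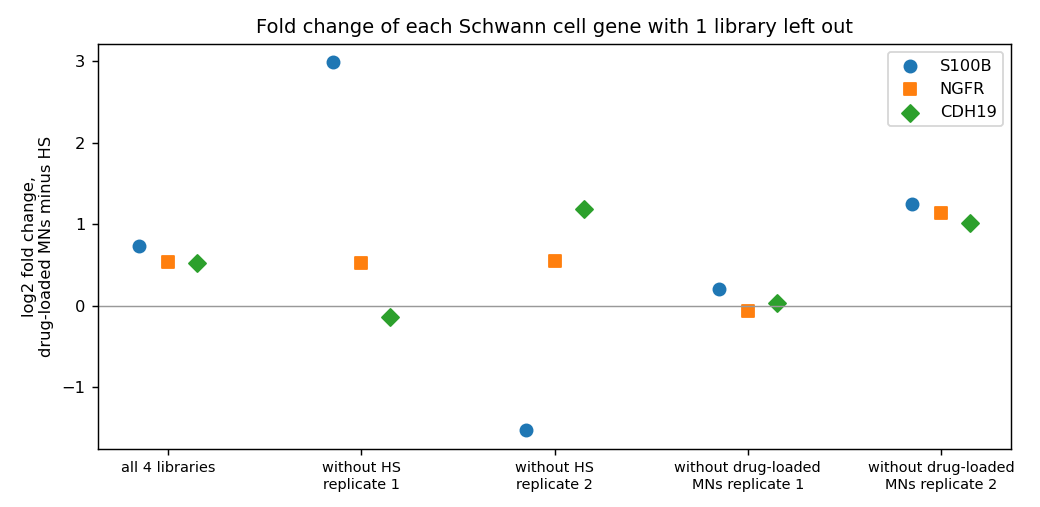
Log2 fold change of S100B, NGFR and CDH19 (drug-loaded MNs minus HS) with all 4 libraries and with each library left out in turn; a lone library of a group is taken to vary like the other group. S100B runs from -1.53 to 2.99, and each gene falls below 0 in 1 of the 4 fits.

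Within a library, the proportion of the members to each other was not constant. The log2 ratio of S100B to CDH19 was 7.29 in HS replicate 1 and 1.074 in HS replicate 2, against 4.26 and 4.33 in drug-loaded MNs. Thus the treated libraries held nearly the same proportion, and the untreated ones lay far to either side of it. The difference between the group means was 0.11, against a pooled SD of 3.11. For S100B to NGFR HS gave log2 ratios of 6.10 and 1.49, and drug-loaded MNs gave 3.82 and 4.11. The ratio of NGFR to CDH19 had the smallest range of the 3, with 1.18 and -0.41 for HS against 0.45 and 0.22 for drug-loaded MNs. These ratios describe how proportions moved between libraries, and gene length was not taken into account.

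Likeness of patterns was measured as the Euclidean distance between log2(ppm + 1) profiles over the 4 libraries, each centred on its own mean, against 7789 tested genes with a symbol. With 4 libraries such a distance is a description only. The nearest gene to S100B was COL11A2, a chain of the type XI collagen of cartilage (distance 0.06). The next were C2orf40, which encodes the secreted peptide precursor augurin (0.18), and HAPLN1, the link protein that ties hyaluronan to aggrecan (0.37). COL11A2 stood at 384 and 15.2 ppm in HS replicates 1 and 2 and at 193 and 93.1 ppm in drug-loaded MNs replicates 1 and 2, the order used for all values below. Its ratio to S100B stayed between 0.893 and 0.946 in all 4 libraries, while the highest and lowest libraries differed 25.2-fold for COL11A2.

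The cartilage genes were looked at as a whole beside S100B. Of 14 chondrocyte markers, 8 were in the table and 7 were tested, and the defining markers ACAN and COL2A1 were not analysed here. Their summed level was 1761 ppm in HS replicate 1 and 97.5 ppm in HS replicate 2, and 894 and 701 ppm in drug-loaded MNs. All 7 were higher in HS replicate 1 than in HS replicate 2 by more than 1 on the log2 scale, which 2.37% of tested genes were, and their median difference was 4.50. Of the 7, 5 had the same order of libraries as S100B (COL11A2, COL9A1, COL11A1, HAPLN1 and MATN3), which 4.32% of tested genes shared. The order was not particular to cartilage genes, since 3 of 10 tested melanocyte markers (MLANA, TYR and OCA2) also had it. COL9A1, a chain of the collagen on the surface of cartilage fibrils, stood at 273 and 6.53 ppm in HS and at 127 and 83.3 ppm in drug-loaded MNs. CNMD, the cartilage glycoprotein chondromodulin, stood at 313 and 10.9 ppm in HS and at 54.5 and 122 ppm in drug-loaded MNs, so its treated libraries were in the other order. S100A1, a paralogue of S100B that cartilage cells also hold, stood at 106 and 11.1 ppm in HS and at 38.6 and 18.8 ppm in drug-loaded MNs, and its libraries had the order of S100B. In the rabbit ear a cartilage plate lies under the ventral dermis, and the study kept the ventral epidermis and dermis for dissociation. The part of cartilage cells in the S100B values was not tested.

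In the comparison of the groups, 6 of the 7 tested chondrocyte markers had a log2 fold change above 0, with a median of 0.97, and none had an unadjusted p under 0.05. Without HS replicate 2 no tested gene of the list was above 0 and the median was -1.31. Without HS replicate 1 the median was 3.18. The filter on low values was applied again in these fits. MATN1 passed it without HS replicate 2, and MATN3 did not pass it without HS replicate 1.

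**Figure D3:**
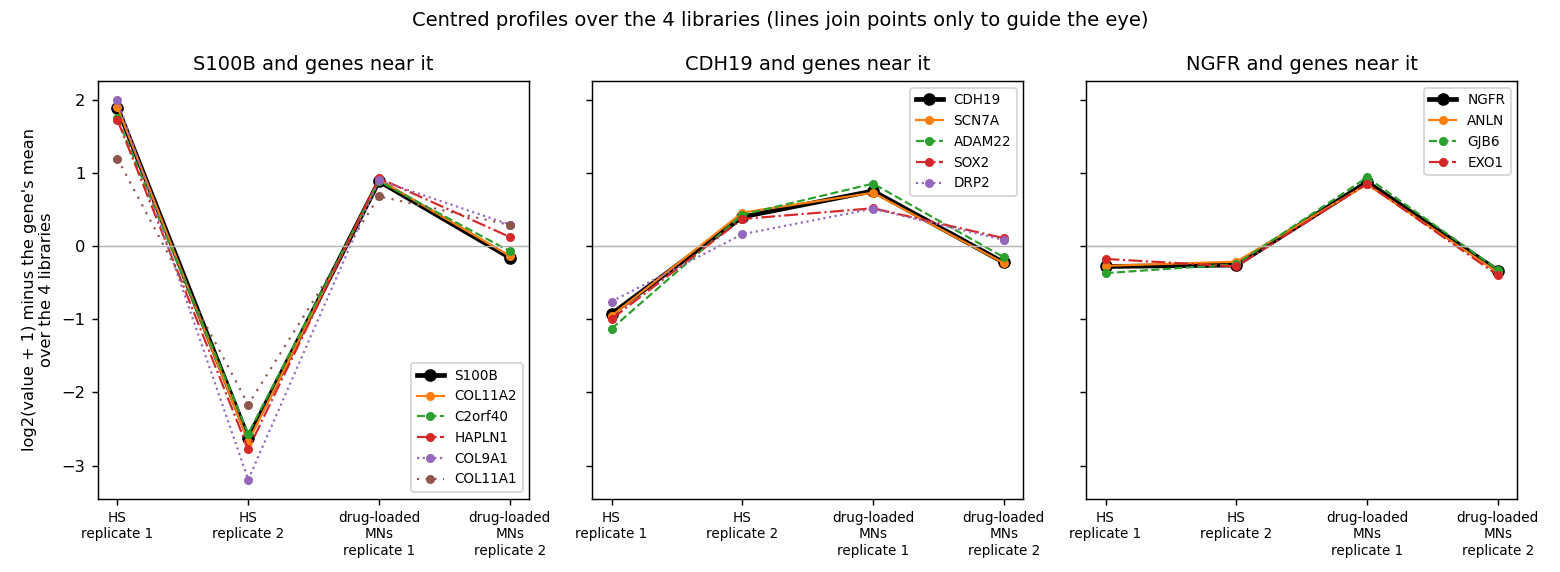
Centred log2(ppm + 1) profiles of S100B, CDH19 and NGFR (black) over the 4 libraries beside genes near each of them; points are libraries, and lines only guide the eye. S100B runs with COL11A2, C2orf40, HAPLN1, COL9A1 and COL11A1, CDH19 with SCN7A, ADAM22, SOX2 and DRP2, and NGFR with ANLN, GJB6 and EXO1. The pericyte gene RGS5, which is not drawn, was nearer to CDH19 (rank 12) than SOX2 (rank 20) and DRP2 (rank 33).

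CDH19 had other neighbours. The nearest was SCN7A, the sodium channel-like protein of non-myelinating Schwann cells (distance 0.07), and ADAM22, a receptor for LGI proteins in nerve, was also among the 3 nearest (0.24). SCN7A stood at 8.82 and 25.1 ppm in HS and at 30.5 and 15.2 ppm in drug-loaded MNs, and its ratio to CDH19 lay between 2.88 and 3.36 in the 4 libraries. ADAM22 stood at 0.977 and 4.82 ppm in HS and at 6.81 and 2.89 ppm in drug-loaded MNs. In both genes, as in CDH19, HS replicate 1 was the lowest library and drug-loaded MNs replicate 1 the highest.

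The same order of libraries was found in 4 of the 10 tested myelin genes (CLDN19 and DRP2 among them), in 3 of 13 non-myelinating and repair genes (SCN7A, GFRA3 and ITGB8) and in SOX2 among 8 glial transcription factors. Of all tested genes 9.96% had it. Outside these lists, 2 of 6 tested markers of mural cells (pericytes and smooth muscle) had it, MYH11 and KCNJ8. So did 1 of 6 neurotrophin and NGFR partner genes (NTF3) and 1 of 6 basal keratinocyte markers (DST). SOX2, which marks immature and repair Schwann cells, stood at 0.792 and 3.62 ppm in HS and at 4.11 and 2.85 ppm in drug-loaded MNs. DRP2, a dystrophin-related protein of the Schwann cell membrane, stood at 0.732 and 2.28 ppm in HS and at 3.17 and 2.102 ppm in drug-loaded MNs. In SOX2 and DRP2 as in CDH19, HS replicate 1 was under 1 in 3 of HS replicate 2, and HS replicate 2 lay within the range of the treated libraries. SOX2 and DRP2 stood under 1 ppm in HS replicate 1, and with depth unknown the precision of their ratios could not be assessed.

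Mural cell markers showed a similar gap within HS. Of the 10 markers of pericytes and smooth muscle, 6 were tested, 5 of them lower in HS replicate 1 (59.7% of all tested genes were) and 3 lower by more than 1 on the log2 scale (3.61% of tested genes). Their summed level was 394 and 725 ppm in HS and 901 and 705 ppm in drug-loaded MNs. RGS5, a pericyte gene, stood at 55.1 and 157 ppm in HS and at 156 and 113 ppm in drug-loaded MNs. By likeness to CDH19, RGS5 held rank 12 of 7789, ahead of SOX2 (rank 20) and DRP2 (rank 33). MYH11, another mural marker, held rank 34. Of the 6 genes, 2 had an unadjusted p under 0.05, both higher in drug-loaded MNs, against 7.26% of all tested genes on that side. These were PDGFRB (log2 fold change 0.60, limma adjusted p 0.485) and ACTA2 (0.71, limma adjusted p 0.554). The median of 0.55 was 0.09 without HS replicate 1 and 1.06 without HS replicate 2.

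**Figure D4:**
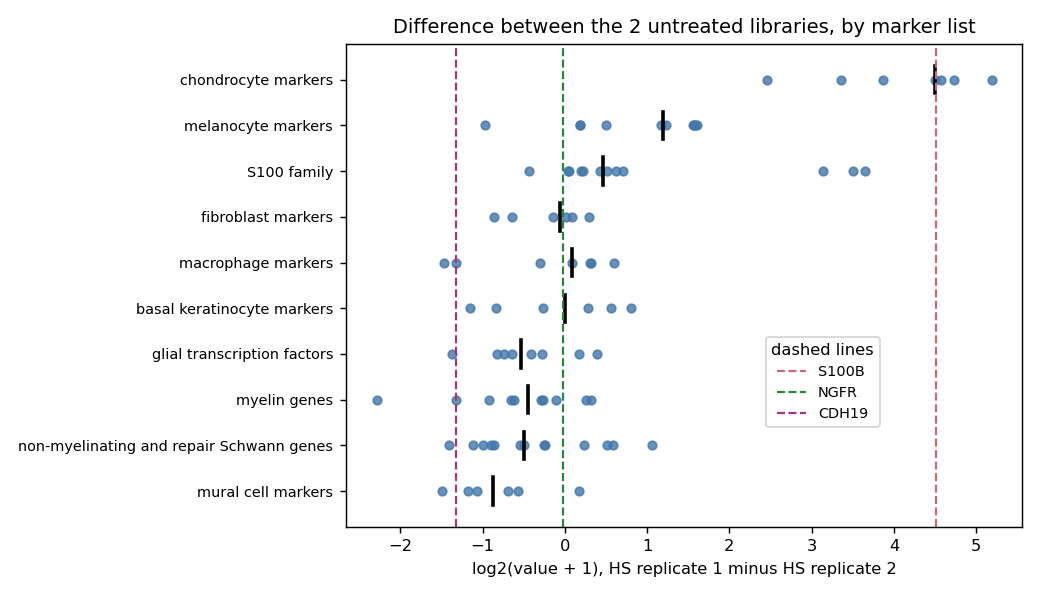
Difference between HS replicate 1 and HS replicate 2 in log2(ppm + 1) for the tested genes of 10 lists (points) with the list median (black bar); dashed lines mark S100B, NGFR and CDH19. S100B, at 4.51, falls among the chondrocyte markers, and CDH19, at -1.33, falls at the low end of the Schwann cell and mural lists.

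NGFR was nearest to ANLN, a scaffold protein of the cytokinetic ring (distance 0.06), GJB6, a connexin of epithelia (0.11), and EXO1, a DNA repair exonuclease (0.12). Each of these was high in drug-loaded MNs replicate 1 and close together elsewhere. ANLN stood at 19.6 and 20.5 ppm in HS and at 43.6 and 18.4 ppm in drug-loaded MNs. Among the 7789 genes compared, CDH19 held rank 3302 by likeness to NGFR, and by likeness to S100B NGFR held rank 1962 and CDH19 rank 7598. The order of libraries of NGFR was shared by 3.32% of tested genes, by 1 of 10 tested myelin genes (UGT8), by 1 of 7 cadherins (CDH24) and by 0 of 8 glial transcription factors and 0 of 13 non-myelinating and repair genes.

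For the ligands and partners of NGFR, 7 of 17 genes were in the table and 6 were tested, of which 2 were above 0 and 4 below, with a median log2 fold change of -0.09 and none at an unadjusted p under 0.05. BDNF, a ligand, stood at 34.9 and 54.4 ppm in HS and at 23.0 and 40.1 ppm in drug-loaded MNs (log2 fold change -0.51, limma adjusted p 0.769). SORT1, the co-receptor for pro-neurotrophins, lay between 141 and 162 ppm in all libraries. The adaptor BEX3 and the ubiquitin ligase TRAF6 had log2 fold changes of 0.13 and -0.13.

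Axons drive Schwann cell growth and myelination through neuregulins, and for that system 5 of 10 genes were tested, 3 above 0 and 2 below. The receptor ERBB3 stood at 22.4 and 39.1 ppm in HS and at 29.4 and 30.6 ppm in drug-loaded MNs, with a log2 fold change of 0.02. Its partner ERBB2 had -0.17, the ligand NRG1 -0.23 and EGFR 0.34. None of the 5 had an unadjusted p under 0.05. ERBB2, ERBB3 and EGFR are also receptors of epidermal keratinocytes.

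Myelin genes had mostly higher values in drug-loaded MNs, and no gene passed the adjusted threshold. Of 18, 14 were in the table and 10 were tested, 9 above 0 and 1 below (64.6% of all tested genes were above 0), with a median log2 fold change of 0.53. Without HS replicate 1, 6 of the 10 were above 0 and the median was 0.09. The groups were apart in 4 of the 10, against 37.8% of all tested genes. Only NDRG1, a cytoplasmic protein needed to maintain myelin that many other cells also express, had an unadjusted p under 0.05. It stood at 7.91 and 12.6 ppm in HS and at 49.97 and 28.8 ppm in drug-loaded MNs (log2 change 1.82, SE 0.35, limma adjusted p 0.264). PMP22, a membrane protein of compact myelin also made by fibroblasts, was at 159 and 172 ppm in HS and 221 and 205 ppm in drug-loaded MNs (log2 fold change 0.36, limma adjusted p 0.733). CNP, a myelin phosphodiesterase, had 0.56. MBP, MAG and PRX were not analysed here.

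Genes of non-myelinating and repair Schwann cells had values on the same side. Of 18, 16 were in the table and 13 were tested. Of the 13, 12 were above 0 (64.6% of all tested genes were), with a median of 0.60. The groups were apart in 8, against 37.8% of all tested genes. Without HS replicate 1, 9 genes of the list were above 0 and the median was 0.37. The filter on low values was applied again there, and GFAP, another gene of the list, fell below it. With all 4 libraries, an unadjusted p under 0.05 was reached by 3, all on the side of drug-loaded MNs, against 7.26% for the whole table. GAP43, a protein of growing axons and of non-myelinating Schwann cells, stood at 16.7 and 10.7 ppm in HS and at 39.2 and 29.2 ppm in drug-loaded MNs (log2 fold change 1.28, SE 0.30, limma adjusted p 0.314). GDNF, a survival factor that repair Schwann cells release, stood at 2.37 and 3.01 ppm in HS and at 7.99 and 4.81 ppm in drug-loaded MNs (log2 fold change 0.98, SE 0.33, limma adjusted p 0.433). NCAM1, an adhesion molecule of unmyelinated fibres, stood at 10.3 and 8.63 ppm in HS and at 17.2 and 16.9 ppm in drug-loaded MNs (log2 fold change 0.79, SE 0.26, limma adjusted p 0.428). HS replicate 1 was above HS replicate 2 for GAP43 and NCAM1 and below it for GDNF. Among the most abundant of the list, the lipocalin APOD had a log2 fold change of 0.50, SORBS2 0.60 and the semaphorin SEMA3B 0.61.

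Several genes of both lists are also made by fibroblasts or macrophages, whose markers also had higher values in drug-loaded MNs. All 6 tested fibroblast markers were above 0 (median 1.12) and their summed level was 22996 and 22526 ppm in HS and 44682 and 48616 ppm in drug-loaded MNs. All 7 tested macrophage markers were above 0 (median 1.16), with sums of 90.6 and 105 ppm in HS and 222 and 219 ppm in drug-loaded MNs. Their part in the values of the Schwann cell lists was not tested.

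Glial transcription factors were represented by 8 of 14 genes, all tested, 5 above 0 and 3 below, with a median of 0.29. Of all tested genes 64.6% were above 0, so 5 of 8 was near the share of the whole table. ZEB2, which releases Schwann cell differentiation and is also high in macrophages, stood at 68.1 and 115 ppm in HS and at 173 and 150 ppm in drug-loaded MNs (log2 fold change 0.86, SE 0.29, limma adjusted p 0.432). EGR2, the master regulator of myelination, had 0.44 and PAX3 0.13. JUN, the driver of the repair state and a stress gene of most cells, stood at 4251 and 6615 ppm in HS and at 3290 and 4495 ppm in drug-loaded MNs (log2 fold change -0.46, limma adjusted p 0.772). TFAP2A had -0.19 and NAB1 -0.11. SOX9, the only relative of SOX10 in group E that was analysed, had -0.28.

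**Figure D5:**
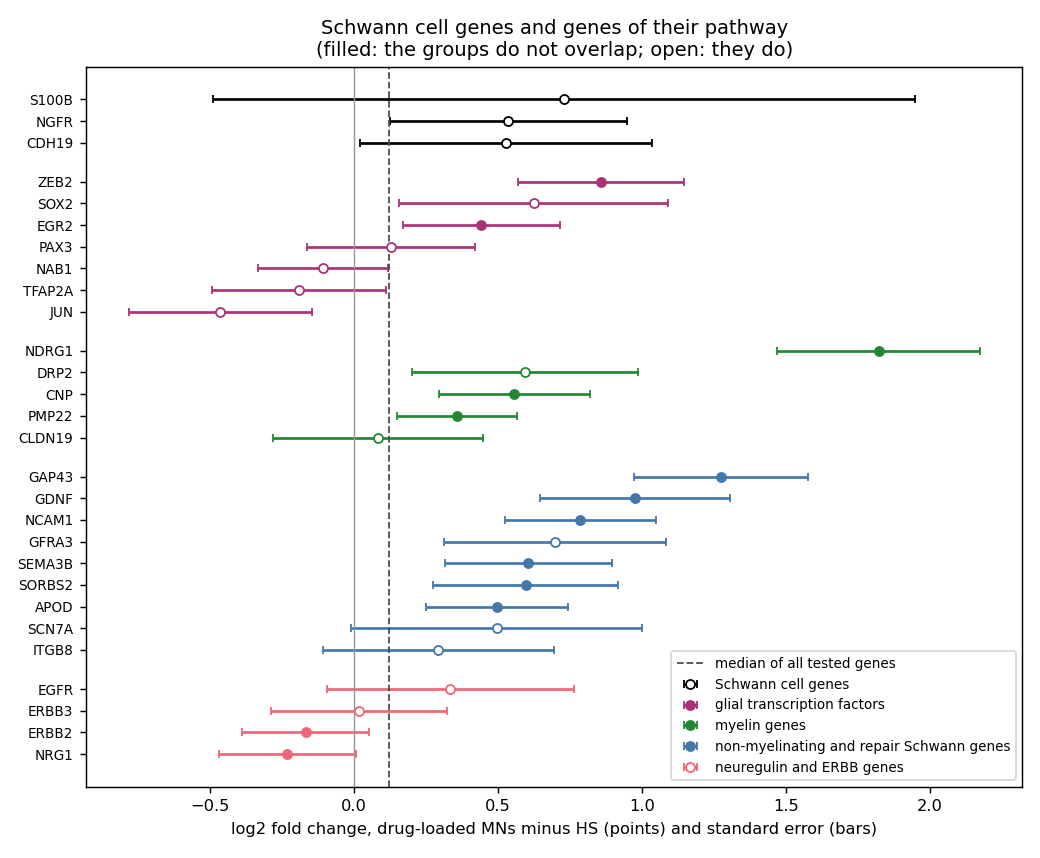
Log2 fold change (drug-loaded MNs minus HS, points) with the limma standard error (bars) for the Schwann cell genes and for the glial transcription factors, myelin genes, non-myelinating and repair genes and neuregulin and ERBB genes named in the text; filled points have groups that do not overlap, and the dashed line is the median of all tested genes (0.12). S100B has the widest bar (SE 1.22), and NDRG1 lies farthest to the right, at 1.82.

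Paralogues were compared with the members within HS and between the groups. Among S100 proteins and their receptor AGER, 12 of 17 were tested. Like S100B, 11 of them were higher in HS replicate 1 than in HS replicate 2, 3 of these by more than 1 on the log2 scale (2.37% of tested genes). Of all tested genes, 59.7% were lower in HS replicate 1. Between the groups 7 of the 12 were above 0 and 5 below (median 0.10, with -0.10 and 0.50 the lowest and highest when 1 library was dropped). S100A4, a gene of fibroblasts and leukocytes, was at 4005 and 2812 ppm in HS and at 7900 and 5368 ppm in drug-loaded MNs (log2 fold change 0.96, limma adjusted p 0.428), and S100G had 0.75 (limma adjusted p 0.576). S100A14, an epithelial gene, stood at 1829 and 1773 ppm in HS and at 1083 and 1115 ppm in drug-loaded MNs (log2 fold change -0.71, limma adjusted p 0.411). Of the classical cadherins, 14 of 17 were in the table and 7 were tested, 6 of them lower in HS replicate 1, as CDH19 was (and 59.7% of all tested genes). Between the groups 5 were above 0, with a median of 0.63, which was 0.30 without drug-loaded MNs replicate 1. An unadjusted p under 0.05 was reached by 3, all higher in drug-loaded MNs, against 7.26% of all tested genes on that side. These were the fibroblast cadherin CDH11 (0.92, limma adjusted p 0.335), the endothelial CDH5 (0.92, limma adjusted p 0.445) and CDH20 (0.88, limma adjusted p 0.437). CDH9 and CDH10 were listed at 0 in all libraries.

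Melanocytes share SOX10 and S100B with Schwann cells. Of 11 markers 10 were tested, 8 above 0, with a median log2 fold change of 0.19. The direction depended on single libraries, since the median was 0.63 without HS replicate 1, -0.53 without HS replicate 2, and -0.28 and 0.56 when drug-loaded MNs replicates 1 and 2 were dropped. Their summed level was 414 and 201 ppm in HS and 413 and 244 ppm in drug-loaded MNs, so replicate 1 was the higher library in both groups. PMEL, a fibril protein of melanosomes, stood at 103 and 34.3 ppm in HS and at 85.5 and 32.6 ppm in drug-loaded MNs. TYRP1, MLANA and TYR were likewise higher in replicate 1 of each group. The order of all 4 libraries was that of S100B in 3 of the 10 (MLANA, TYR and OCA2), against 4.32% of tested genes. KIT, which mast cells also carry, was the only one at an unadjusted p under 0.05 (log2 fold change 0.77, limma adjusted p 0.447). In 6 of the 10, HS replicate 1 was above HS replicate 2 by more than 1 on the log2 scale, against 2.37% of tested genes.

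For other cells that lie near nerves or in the skin, list medians lay between -0.16 and 0.32. Perineurial markers had 4 tested genes, 1 above 0 (median -0.07), and SLC2A1, a glucose transporter of perineurium and epidermis, had the only unadjusted p under 0.05 (log2 fold change -0.66, limma adjusted p 0.458). Neuronal markers had 6 tested genes, 4 above 0 (median 0.16), with GAP43 the only one at that p. Dendritic and Langerhans cell markers had 4 tested genes, 3 above 0 (median 0.32), with CCR7 the only one at that p (log2 fold change 0.98, limma adjusted p 0.405), and CD207 was not analysed here. The basal keratinocyte median was -0.16 over 6 genes, and the endothelial median was 0.22 over 6.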

How the data were processed

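Gene expression was measured by single-cell RNA sequencing in 4 libraries (2 HS, 2 drug-loaded MNs). Per the labels and methods, the authors aligned reads and counted unique molecular identifiers with Cell Ranger (version 2.1.1 in the submitters' processing notes), filtered cells, corrected for technical differences between samples and used Seurat. The notes name a mouse genome build although the identifiers are rabbit genes. The deposited values are a relative expression signal named FPKM, but each column summed to 10000. How cells were combined, how doublets were treated and whether the correction had touched these values was not stated. Of 885 to 1083 low values per library, up to 20 times the smallest, 18.6% to 21.7% lay within 0.1 of a whole multiple of it, which did not allow whole reads to be rebuilt. A count model, intervals and floors were therefore not computed.

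Values were rescaled to 1000000 per library, genes with a mean of at least 1 were kept, and limma 3.58.1 (R 4.3.3; lmFit, then eBayes with trend) was run on log2(value + 1), two-sided, without covariates. Fold changes on this scale understate those of low genes. With 2 libraries a group, exact permutation gives no p below 0.333, so it was not used. The fit was also run on simulated data in which all genes had the same spread. Spreads differed between genes here, so that run does not bear on genes such as S100B. Lists are described by counts and medians. Genes were named as members, as the 4 most abundant tested genes of a list, by an unadjusted p under 0.05, or as the 3 nearest profiles of a member. Others (such as SOX2, DRP2, EGR2, PAX3 and S100A1) were named after their values were seen, as were the counts of list genes with a library left out, of library order and the HS differences. Some genes that this rule names are not reported here. The members and lists were chosen with earlier results of these data known. Alternatives covered scaling, pseudocount, filter, variance prior, replicate block and leaving out each library. The filter was applied again after each rescaling and each library left out, so the tested genes of a list could differ.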

Additional observations from a re-analysis of the deposited data

How the results depend on the processing

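No member passed an adjusted p of 0.05 in any of the 14 alternatives, with ranges of 0.282 to 1 for S100B, 0.345 to 1 for NGFR and 0.341 to 1 for CDH19. Each kept a log2 fold change above 0 in 13 of 14. With 1 library left out, values ran from -1.53 to 2.99 for S100B, from -0.068 to 1.14 for NGFR and from -0.13 to 1.19 for CDH19, the lowest ones being those without HS replicate 2, drug-loaded MNs replicate 1 and HS replicate 1. The cause was not tested.

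Of all tested genes, 4 passed the threshold. The number was 0 after quantile normalization, with median ratio scaling, a total without abundant genes, a pseudocount of 5 and no filter on low values, 1 with eBayes without trend, and 0 to 75 with 1 library left out (0 when HS replicate 1 was dropped, 48 and 75 when drug-loaded MNs replicates 1 and 2 were). With the replicate number as a block it was 241. Nothing but the number links libraries across groups, and over the 2 pairs the correlation of deviations was 0.22. The block moved S100B to an adjusted p of 0.352 and left no member past the threshold. It took NDRG1, GAP43, S100A4, CDH11 and several fibroblast and macrophage markers past it, and NDRG1 also passed without drug-loaded MNs replicate 2.

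The median of all tested genes, 0.12, became -0.02 after quantile normalization and -0.01 with median ratio scaling. The myelin median, 0.53, was 0.09 without HS replicate 1, 0.26 with a pseudocount of 5 and 0.80 with a minimum mean of 5. The non-myelinating and repair median, 0.60, was 0.37 without HS replicate 1. Both stayed above 0 in all 14 alternatives. Dropping 1 library also turned the sign of other list medians, which ran from -0.32 to 0.41 for neuregulin and ERBB genes, from -0.17 to 0.02 for perineurial, and from -0.49 to 0.29 for basal keratinocyte markers, and moved those of glial transcription factors (0.05 to 0.53), neuronal (0.06 to 0.24), dendritic (0.11 to 0.53) and endothelial markers (0.03 to 0.45). The limits set by depth could not be assessed, and edgeR and DESeq2, listed as alternatives, were left out for want of whole reads.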

Other observations

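Other S100 genes also set the untreated libraries apart. S100A8 and S100A9, which form the calprotectin of neutrophils and stressed epidermis, stood at 153 and 71.8 ppm in HS replicate 1 and at 12.6 and 4.83 ppm in HS replicate 2. In drug-loaded MNs, S100A8 was at 13.6 and 32.3 ppm and S100A9 at 6.02 and 20.1 ppm, so that replicate 2 was the higher treated library for both, in contrast to S100B. Their log2 fold changes were -1.06 and -0.76 (limma adjusted p 0.840 and 0.898). STMN2, a tubulin-binding protein of growing neurons, stood at 22.9 and 32.8 ppm in HS and at 38.9 and 39.6 ppm in drug-loaded MNs (log2 fold change 0.50, limma adjusted p 0.696). These genes were chosen after their values were seen.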
